A study of Mus musculus with 6 samples.

Results

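The transcripts of 66 genes for splicing factors and spliceosome proteins were examined in mouse liver, out of 41838 genes in the table. They are the protein-coding genes whose symbols begin with Hnrnp, Snrp or U2af, or with Srsf, Sf3a, Sf3b or Prpf followed by a number, with Hnrnpa2b1 and Hnrnpc left out. The rule matches names and uses no measured value, though it was set with earlier results of these data known. It gave 11 Srsf genes, 18 Hnrnp genes, 12 Sf3 and U2af genes, 12 Snrp genes and 13 Prpf genes. Polyadenylated RNA was sequenced from 6 livers, 3 of Alkbh5flox/flox mice and 3 of Alkbh5-HKO mice, called flox and HKO below. The flox mice carry 2 floxed copies of Alkbh5, the gene of an enzyme that removes N6-methyladenosine from RNA, and the HKO mice are those in which the gene was targeted. Sample titles write HKO as Alkbh5-CKO, and the labels expand neither. The sources used here do not give the driver of the deletion, the deleted part of the gene or the sex of the mice. All mice received normal chow, and 9 weeks stands as the age in the series text but as the time on chow in the labels.

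Splicing removes introns from nuclear transcripts. The U1 and U2 small nuclear ribonucleoproteins (snRNPs) mark the donor site and the branch point, the U2AF dimer binds the acceptor site, and the U4/U6.U5 tri-snRNP then joins to form the active spliceosome. Most Snrp genes encode Sm proteins, which form the ring around the small nuclear RNAs, and the others encode proteins particular to the U1 or U2 snRNP. Sf3 proteins belong to the U2 snRNP. SR proteins (Srsf) mostly promote exon inclusion, while hnRNPs coat nuclear RNA and often oppose it. Some hnRNPs bind RNA more readily where N6-methyladenosine loosens its fold, and Hnrnpa2b1 and Hnrnpc are commonly counted with the readers of this mark.

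The targeted gene matched the labels in all 6 livers. Alkbh5 was at 17.8, 16.8 and 14.8 FPKM (fragments scaled by gene length and by library size) in flox livers 1 to 3 and at 0.508, 0.443 and 0.476 in HKO livers 1 to 3. The difference in log2(FPKM + 1) was -3.56 (SE 0.12, adjusted p = 8.14e-05 by limma), and the log2 value ranged from -1.97 with a pseudocount of 5 to -5.10 by voom on recovered reads. Depth was 14907384 to 17034754 reads per library. HKO liver 1 stood apart: it lay at 38.6 on principal component 1 (44% of the variance), the other HKO livers at 15.7 and 4.51 and the flox livers at -22.7 to -13.7. It also had the highest mitochondrial share, 5.67% against 3.66% in the lowest library. For those of the 66 genes that are named below, the log2 fold change without this liver is given wherever leaving it out turned the sign or moved the value by more than 1.5 times. This was not done for single genes of the related lists.

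No splicing gene passed the test. Of the 66 genes, 62 had a mean of at least 1 FPKM over the 6 libraries and were tested, 24 of them higher and 38 lower in HKO livers. By limma on log2(FPKM + 1) with Benjamini-Hochberg adjustment over all 10453 tested genes, 0 of 62 passed at 0.05, against 0.488% of all tested genes (0.268% higher, 0.22% lower). Only Prpf6, 1 of 62 (1.61%), had an unadjusted p under 0.05, against 17.0% of all tested genes. The lowest adjusted p among the 62 was 0.240, and over all alternatives, voom on recovered reads included, the lowest was 0.185 and 0 of the tested splicing genes passed in any. Between 0 and 5 of them had an unadjusted p under 0.05 in these alternatives.

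The differences were mostly small. The median log2 fold change was -0.10 over the 62 genes and -0.02 over all tested genes, and the median size, regardless of sign, was 0.157 against 0.200. A log2 fold change of less than 0.3 in either direction was found for 53 of 62 splicing genes (85.5%) and for 67.1% of all tested genes. For 55 of the 62 the 95% interval of the log2 fold change lay within 1 in both directions, so a doubling or halving of FPKM + 1 lay outside it. For the other 7 the interval reached further. In whole liver, fewer cells of a type and less RNA per cell cannot be told apart, so these values describe the tissue's RNA as a mixture. Summed FPKM of all 66 genes was 1271 ± 31.5 in flox and 1202 ± 110 in HKO livers (SD, n = 3 each), with 1075 in HKO liver 1 and 1265 and 1267 in HKO livers 2 and 3.

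**Figure D1:**
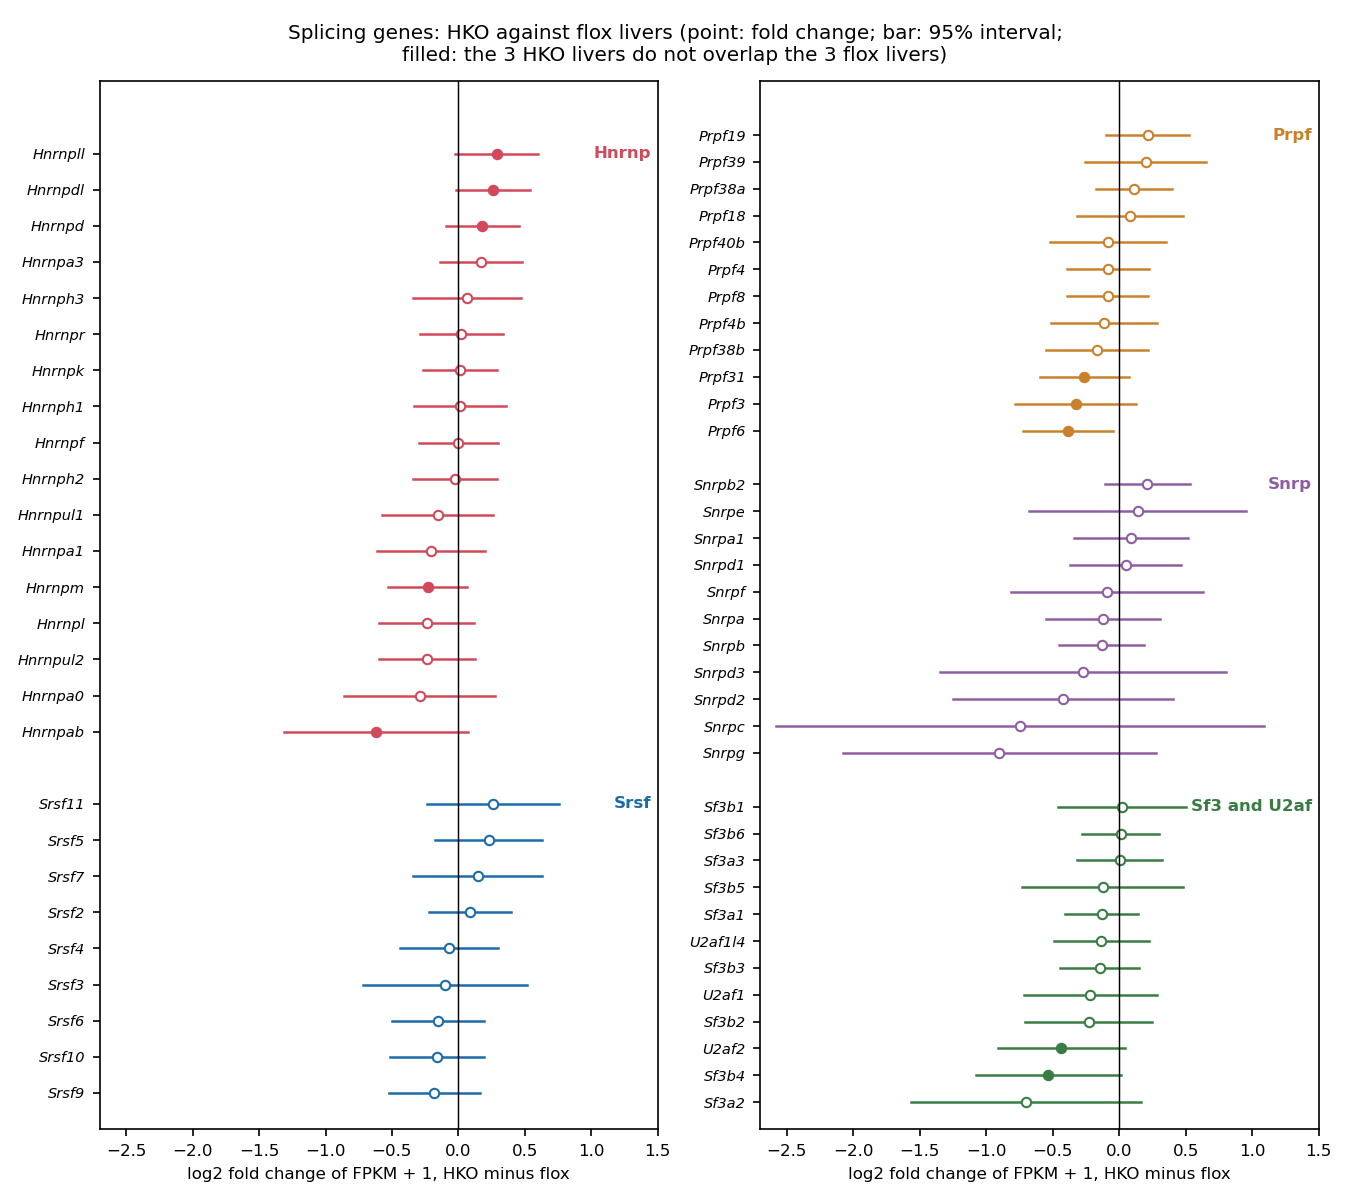
Log2 fold change of FPKM + 1 (horizontal axis, HKO minus flox) of 61 of the 62 tested splicing genes, by family, with points for the estimate, bars for its 95% interval and filled points where the 3 HKO livers do not overlap the 3 flox livers. The estimates run from -0.90 (Snrpg) to 0.29 (Hnrnpll), 10 points are filled, and the widest bars are those of Snrpc and Snrpg.

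The Snrp transcripts, for proteins of the U1 and U2 snRNPs and the Sm ring, showed the widest spread between livers. None of the 11 tested Snrp genes passed (4 higher, 7 lower, median log2 -0.12, lowest adjusted p = 0.402). The median of the 11 was 0.05 without HKO liver 1. The median SE of these 11 was 0.307, above the 0.135 to 0.204 of the other families. Snrpd2, for a core Sm protein, had 46.1, 47.5 and 49.0 FPKM in flox livers and 18.6, 44.8 and 51.7 in HKO livers. Snrpd3, for another protein of the ring, had 32.5, 42.9 and 50.3 in flox and 15.3, 47.1 and 53.2 in HKO livers. In both genes HKO liver 1 alone was low while HKO livers 2 and 3 lay within or just beyond the flox range. Their log2 fold changes were -0.43 (SE 0.35) and -0.28 (SE 0.45), and without HKO liver 1 they were 0.02 and 0.27. Snrpb, the Sm protein gene whose product joins Snrpd3 in the ring, gave 28.7, 33.6 and 31.0 in flox and 29.8, 25.0 and 30.1 in HKO livers (log2 -0.13), with overlapping groups. Snrpd1, another ring member, gave 8.89, 8.95 and 12.5 in flox and 8.73, 12.0 and 10.6 in HKO livers (log2 0.05, and 0.16 without HKO liver 1). Snrpa, which encodes the A protein of the U1 snRNP, gave 15.3, 14.9 and 18.8 in flox and 11.5, 16.8 and 16.9 in HKO livers (log2 -0.12, and 0.05 without HKO liver 1). Snrpb2, for a related protein of the U2 snRNP, gave 7.51, 6.79 and 9.13 in flox and 8.68, 9.53 and 9.22 in HKO livers (log2 0.21, SE 0.14), the most positive value of the family. Snrpa and Snrpb2 thus overlapped between groups, as did all 11 tested Snrp genes, where 25.4% of all tested genes did not overlap.

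Single livers set the extreme values of this family. Snrpg, the smallest gene of the set at 393 bases of deposited length and part of the Sm ring, had 19.2, 24.7 and 21.9 FPKM in flox livers and 15.7, 4.16 and 20.2 in HKO livers. The low value of HKO liver 2 rests on 30 reads, against 99 and 119 in HKO livers 1 and 3. The log2 fold change was -0.90 (SE 0.50, adjusted p = 0.402), the most negative of all 62 genes, and -0.28 without HKO liver 2. Snrpc, for the C protein that helps the U1 snRNP hold the donor site, had 9.41, 7.47 and 8.90 in flox and 0.410, 11.1 and 9.86 in HKO livers. Here HKO liver 1 had 10 reads where HKO livers 2 and 3 had 309 and 225, and the log2 fold change of -0.75 (SE 0.78) became 0.26 without it. Snrpe, a short Sm gene, went the other way in that liver, with 26.3, 23.4 and 16.0 in flox and 39.9, 15.2 and 22.0 in HKO livers (log2 0.14, and -0.22 without HKO liver 1). The remaining pair of tested Snrp genes had log2 values of -0.09 and 0.09. Snrpn, the imprinted Sm gene of neurons, was listed at 0 in every library, as was Snurf, which shares its locus and strand.

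**Figure D2:**
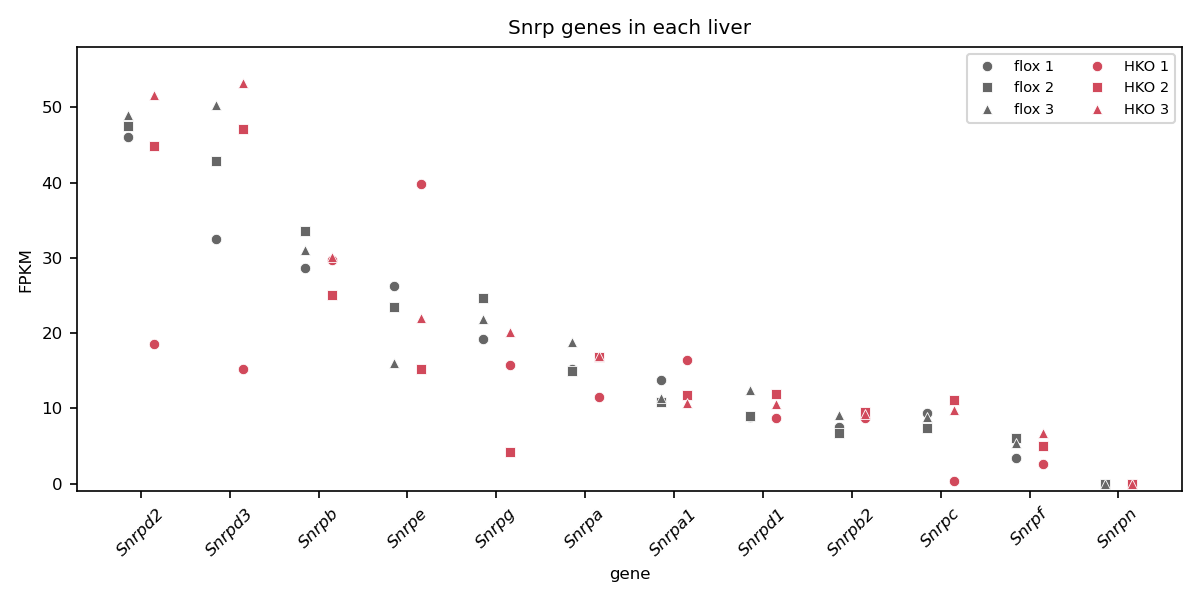
FPKM (vertical axis) of the 12 Snrp genes, ordered by mean, with 1 point per liver, grey for flox and red for HKO, and the symbol giving the liver number. The points of most genes lie close together, apart from HKO liver 1 in Snrpd2 (18.6), Snrpd3 (15.3), Snrpe (39.9) and Snrpc (0.410) and HKO liver 2 in Snrpg (4.16).

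Part of the coding sequence of Snrpc and Snrpg is shown to let the base composition of these genes, 48.6% and 46.4% GC over the longest coding transcript, be seen beside the values above. Each is the 90-base stretch within 1 coding exon whose GC content is nearest that of its transcript, read from GENCODE M21 on GRCm38 and written 5′ to 3′ on the gene's strand, with G and C in capitals. The Snrpc stretch lies in exon 3 of 6 at chr17:27842274-27842363 and the Snrpg stretch in exon 3 of 4 at chr6:86376521-86376610, both on the plus strand.
Snrpc: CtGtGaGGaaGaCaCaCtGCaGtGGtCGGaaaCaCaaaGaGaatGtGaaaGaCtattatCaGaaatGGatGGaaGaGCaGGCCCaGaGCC
Snrpg: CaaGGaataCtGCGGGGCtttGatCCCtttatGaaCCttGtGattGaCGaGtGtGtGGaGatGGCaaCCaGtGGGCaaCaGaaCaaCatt
Each stretch holds 43 G or C in 90 bases. As the stretches were chosen by GC content, their likeness is not a result about these genes.

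Among genes for branch point and acceptor site recognition, 0 of the 12 Sf3 and U2af genes passed (lowest adjusted p = 0.305). Of these, 3 were higher and 9 lower (median log2 -0.14), where 5431 of all 10453 tested genes were lower. U2af2, for the large U2AF subunit that binds the polypyrimidine tract, had 18.3, 21.3 and 19.9 FPKM in flox and 10.3, 16.2 and 17.7 in HKO livers, without overlap (log2 -0.43, SE 0.20, and -0.21 without HKO liver 1). U2af1, for the small subunit that reads the acceptor dinucleotide, had 33.7, 35.7 and 37.6 in flox and 21.6, 35.4 and 37.0 in HKO livers, and only HKO liver 1 lay below the flox range. Its log2 fold change was -0.22 (SE 0.21), and 0.02 without HKO liver 1. Sf3b4, an SF3B subunit that contacts RNA upstream of the branch point, had 14.1, 12.2 and 11.4 in flox and 5.53, 9.24 and 11.2 in HKO livers, again without overlap (log2 -0.53, SE 0.23, and -0.27 without HKO liver 1). Sf3b1, the SF3B scaffold around the branch point adenosine, had 19.6, 19.3 and 14.8 in flox and 24.0, 15.1 and 16.1 in HKO livers (log2 0.02, and -0.18 without HKO liver 1), and HKO liver 1 was here the highest of the 6. Sf3b2, which binds Sf3b4, had 38.7, 39.3 and 31.7 in flox and 23.3, 32.6 and 38.7 in HKO livers (log2 -0.23, SE 0.20, and -0.036 without HKO liver 1). Sf3b5, a small SF3B subunit, had 31.4, 35.6 and 36.6 in flox and 20.3, 39.7 and 38.8 in HKO livers, which gave -0.12 with all livers and 0.18 without HKO liver 1. Subunits of the same SF3B complex therefore lay on both sides of their flox range in HKO liver 1.

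The SF3A complex, which ties SF3B to the U2 snRNP, held both a stable and a variable gene. Sf3a1 had 5.82, 5.32 and 4.88 FPKM in flox and 4.92, 4.63 and 4.79 in HKO livers (log2 -0.13, SE 0.12). Sf3a2 had 10.1, 7.53 and 10.9 in flox and 2.48, 6.96 and 8.36 in HKO livers, with flox liver 2 inside the HKO range. Its log2 fold change of -0.70 (SE 0.37, adjusted p = 0.378) was the most negative of the Sf3 and U2af genes, and it was -0.27 without HKO liver 1. Sf3a2 overlaps Plekhj1, a gene on the other strand at 15.1 FPKM, and the sources used here do not say whether reads were assigned by strand. The remaining 4 genes of the group had log2 values between -0.15 and 0.01.

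The SR protein genes, of which 9 of 11 were tested, had the narrowest range of log2 fold changes of the 5 families, -0.18 to 0.26. Of the 9, 4 were higher and 5 lower, the median was -0.07 and the lowest adjusted p 0.530. Srsf5, an SR protein abundant in liver, was the highest of all 66 genes, with 105, 121 and 142 FPKM in flox and 125, 164 and 141 in HKO livers (log2 0.23, SE 0.17). It made up 39.9% to 50.5% of the summed FPKM of the Srsf genes in the 6 livers. Srsf2, known as SC35 and used as a marker of nuclear speckles, had 47.9, 50.8 and 51.1 in flox and 53.8, 57.8 and 48.0 in HKO livers (log2 0.09). Srsf6 had 45.7, 42.1 and 40.9 in flox and 41.9, 41.6 and 32.5 in HKO livers (log2 -0.15), with only HKO liver 3 below the flox range. Srsf11, an SR-related protein, had 12.7, 15.4 and 14.1 in flox and 23.0, 16.6 and 12.8 in HKO livers, which gave the family's most positive log2 value, 0.26 (SE 0.21), and 0.05 without HKO liver 1. Srsf7, which also serves in mRNA export, had 10.6, 11.9 and 16.1 in flox and 17.9, 13.4 and 11.7 in HKO livers (log2 0.14, and -0.02 without HKO liver 1). Srsf3, the smallest SR protein and a known regulator of hepatocyte maturation, had 5.42, 3.76 and 2.62 in flox and 3.94, 4.47 and 2.34 in HKO livers (log2 -0.10, and -0.17 without HKO liver 1), and its flox livers alone spanned a wider range than the HKO livers. Srsf9 had 24.2, 19.4 and 21.7 in flox and 16.7, 19.9 and 20.7 in HKO livers, the family's most negative value at -0.18, and -0.091 without HKO liver 1. Srsf10, an atypical SR protein that represses splicing when dephosphorylated, had 5.94, 5.30 and 6.75 in flox and 6.30, 4.92 and 4.63 in HKO livers (log2 -0.16, and -0.27 without HKO liver 1). All 9 groups of HKO values overlapped the flox values, where 25.4% of all tested genes did not overlap.

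The pair of Srsf genes that was not tested lay below 1 FPKM. Srsf1, the founding SR protein gene, had 0.133, 0.633 and 0.162 FPKM in flox and 0.0795, 0.110 and 0.0849 in HKO livers, from 22 to 152 reads. Its deposited length is 17284 bases although the deposited start and end span 6995 bases, the only one of the 66 genes for which length exceeds span (690 of all 41838 genes), so its FPKM cannot be set beside those of the other genes. Srsf12 was listed at 0 in 5 libraries and at 0.0387 in flox liver 3.

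None of the 17 tested hnRNP genes passed. Of these, 8 were higher and 9 lower, the median was -0.0014 on the log2 scale and the lowest adjusted p 0.323. Hnrnpk, a KH-domain protein that binds C-rich RNA, was the most abundant of the family, with 55.7, 57.1 and 58.6 FPKM in flox and 57.6, 58.9 and 56.0 in HKO livers (log2 0.01, 95% interval -0.27 to 0.29). Hnrnpab, an A/B-type hnRNP, had 58.1, 65.2 and 59.0 in flox and 23.4, 46.0 and 55.1 in HKO livers. Each HKO liver lay below each flox liver, and the log2 fold change was -0.62 (SE 0.30, adjusted p = 0.338) with all livers and -0.26 without HKO liver 1. Hnrnpl, which binds CA repeats, had 44.6, 42.3 and 46.0 in flox and 31.2, 42.8 and 39.0 in HKO livers (log2 -0.24, and -0.11 without HKO liver 1). Its paralog Hnrnpll, known for exon skipping in the transcript of the leukocyte antigen CD45, had 7.05, 7.59 and 6.69 in flox and 10.3, 8.27 and 8.23 in HKO livers, the most positive value of the 62 genes at 0.29 (SE 0.13, adjusted p = 0.327), and 0.19 without HKO liver 1. The paralogs thus had opposite signs, and the difference between them was not tested.

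Genes of the A/B type differed in sign. Hnrnpa1, the best-known splicing silencer protein, had 23.9, 25.0 and 23.9 FPKM in flox and 16.3, 22.2 and 25.2 in HKO livers (log2 -0.20, and -0.03 without HKO liver 1). Hnrnpa0 had 36.6, 42.2 and 42.1 in flox and 21.8, 41.1 and 38.7 in HKO livers (log2 -0.29, and -0.01 without HKO liver 1). Hnrnpa3 had 7.62, 7.19 and 8.08 in flox and 9.74, 8.90 and 7.60 in HKO livers (log2 0.17, and 0.098 without HKO liver 1). In Hnrnpa1 and Hnrnpa0 the negative value came with HKO liver 1, whereas in Hnrnpa3 that liver was the highest. The 2 hnRNP genes left out of the set, Hnrnpa2b1 and Hnrnpc, had log2 values of 0.14 (adjusted p = 0.608) and -0.10 (adjusted p = 0.694).

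Hnrnpd, known as AUF1 and a binder of AU-rich elements, had 5.50, 6.42 and 6.33 FPKM in flox and 6.78, 7.20 and 7.04 in HKO livers (log2 0.18, SE 0.12). Its relative Hnrnpdl had 16.1, 15.5 and 15.1 in flox and 18.7, 20.2 and 17.7 in HKO livers (log2 0.26, SE 0.12, adjusted p = 0.323). In both genes all HKO livers lay above all flox livers, and the value without HKO liver 1 was 0.20 and 0.26. After the GC correction described below, Hnrnpd was at 0.061 (adjusted p = 0.846 by limma) and Hnrnpdl at 0.21. Hnrnph1, which binds G runs, had 31.3, 33.1 and 37.8 in flox and 36.8, 36.6 and 29.6 in HKO livers (log2 0.01, and -0.043 without HKO liver 1). Hnrnpm, a regulator of exon skipping, had 37.5, 35.3 and 34.0 in flox and 27.6, 30.6 and 32.3 in HKO livers, without overlap (log2 -0.23, SE 0.13, adjusted p = 0.396). Hnrnpul1 had 16.0, 15.7 and 15.1 in flox and 10.6, 14.8 and 17.1 in HKO livers (log2 -0.15, and 0.03 without HKO liver 1). The remaining 5 tested genes had log2 values between -0.24 and 0.06. Hnrnpu, the scaffold attachment factor, was not tested, with 2.44, 0.275 and 0.238 in flox and 0.765, 1.44 and 0.269 in HKO livers. Its locus overlaps Cox20 on the other strand, which had a mean of 5.16 FPKM.

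The Prpf genes encode mainly proteins of the tri-snRNP, the Prp19 complex and the U1 snRNP, and 5 of 13 were higher and 8 lower (median log2 -0.08). Prpf6 (chromosome 2, 181601319 to 181655661, plus strand, GRCm38.p6), which bridges the U5 and U4/U6 snRNPs, had 26.3, 27.1 and 27.3 FPKM in flox and 17.3, 23.5 and 20.8 in HKO livers. No HKO liver reached the flox range, and the log2 fold change was -0.38 (SE 0.15, 95% interval -0.72 to -0.05), with an adjusted p of 0.240 and -0.27 without HKO liver 1. Prpf31 and Prpf3, whose products bind the U4/U6 duplex and are linked to retinitis pigmentosa in humans, were the other 2 of the family without overlap. This made 3 of 13 Prpf genes (23.1%), against 25.4% of all tested genes. Prpf31 had 4.14, 3.92 and 4.10 in flox and 2.54, 3.59 and 3.59 in HKO livers (log2 -0.26, SE 0.14, and -0.14 without HKO liver 1). Prpf3 had 2.18, 2.36 and 2.23 in flox and 0.937, 2.03 and 1.97 in HKO livers (log2 -0.33, SE 0.19, and -0.12 without HKO liver 1). In each of these 3 genes HKO liver 1 was the lowest. Prpf8, the scaffold of the catalytic centre, had 23.7, 25.9 and 23.4 in flox and 23.3, 20.5 and 24.8 in HKO livers (log2 -0.09, 95% interval -0.39 to 0.22). Prpf19, the ubiquitin ligase that names its complex, had 17.0, 15.1 and 14.9 in flox and 19.8, 16.3 and 19.0 in HKO livers (log2 0.21, SE 0.13), the family's most positive value. Prpf4b, a kinase of spliceosome proteins, had 8.36, 7.79 and 7.99 in flox and 9.57, 5.98 and 6.90 in HKO livers, and HKO liver 1 was the highest while the other HKO livers were the lowest of the 6 (log2 -0.11, and -0.28 without HKO liver 1). The remaining 7 genes, Prpf39 and Prpf40b among them, had log2 values between -0.17 and 0.20.

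Over all families, the groups did not overlap in 10 of 62 splicing genes (16.1%), against 25.4% of all tested genes. The 3 higher in HKO livers were Hnrnpdl, Hnrnpll and Hnrnpd, against 12.8% of all tested genes in this direction. The 7 lower were Hnrnpab, Hnrnpm, U2af2, Sf3b4, Prpf6, Prpf31 and Prpf3, against 12.6%. None of these shares exceeded the background of the tested genes. After the GC correction described below, the 7 lower genes had log2 values from -0.62 (Hnrnpab) to -0.24 (Hnrnpm). Among them, Prpf6 was at -0.35, Sf3b4 at -0.42 and Prpf3 at -0.36. The 3 higher genes then ran from 0.061 (Hnrnpd) to 0.22 (Hnrnpll).

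**Figure D3:**
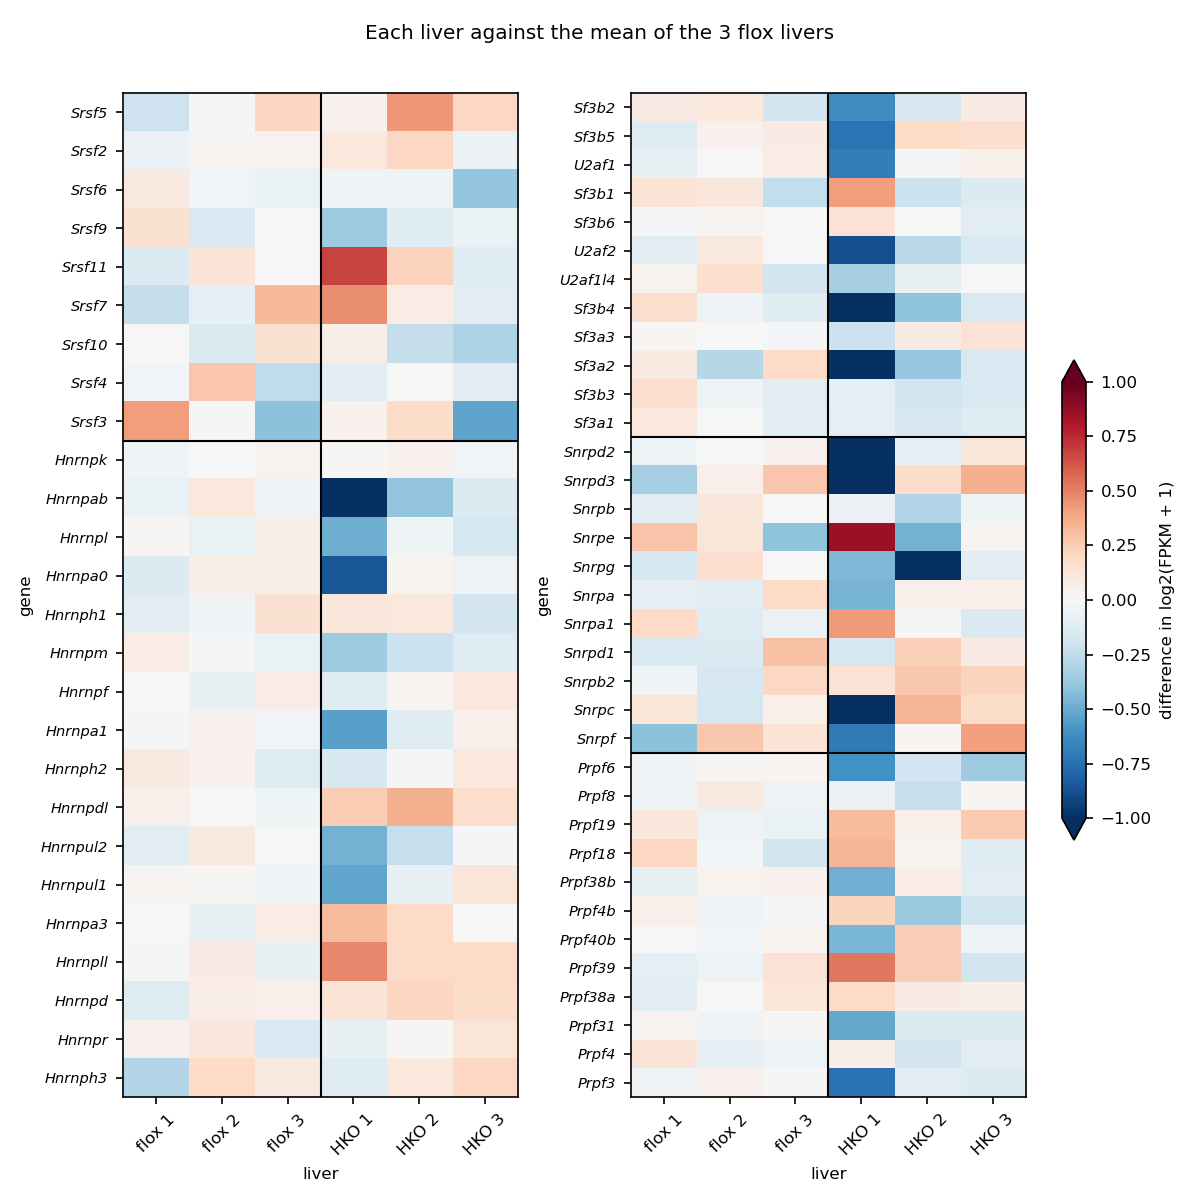
Difference in log2(FPKM + 1) of each liver (columns) from the mean of the 3 flox livers for 61 of the 62 tested splicing genes (rows, by family and then mean level), red higher and blue lower, with the colour scale ending at 1 in both directions. HKO liver 1 holds most of the cells at the blue end of the scale, beside Snrpg in HKO liver 2, and it is the lowest of the 6 livers for 29 of 62 genes and the highest for 14.

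Most of the larger differences came with HKO liver 1. It was the lowest of the 6 livers for 29 of 62 splicing genes (46.8%, against 29.3% of all tested genes) and the highest for 14 (22.6%, against 27.6%). Departure here means a liver's log2(FPKM + 1) minus the mean of the other 2 livers of its own group. A departure of at least 1 in either direction in HKO liver 1 was found for 6 splicing genes (9.68%) and 3.23% of tested genes with a known GC content. These 6 were Snrpc (-3.02), Snrpd3 (-1.65), Snrpd2 (-1.33), Sf3a2 (-1.31), Hnrnpab (-1.07) and Snrpe (1.08). The departure of Snrpc was equalled or exceeded, downward, by only 6 of the 10453 tested genes counting itself, and that of Snrpg in HKO liver 2 (-1.87) by 11. With all livers 9 splicing genes had a log2 fold change below -0.3, and without HKO liver 1 only Snrpg of these 9 did. The 9 genes were picked by values that include HKO liver 1, so some approach to 0 without it follows from the choice. The median of the 62 moved from -0.10 to -0.035, 35 genes came closer to 0 and 19 changed sign. Shares of all tested genes for these counts were not taken. The median size of the log2 fold change, regardless of sign, moved from 0.157 to 0.120 over the 62 genes. Over 9360 tested genes it moved from 0.191 to 0.167.

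The departures of HKO liver 1 varied with base composition. The splicing genes are AT-rich for liver transcripts. The median GC content of the longest coding transcript was 46.4% over all 66 genes, untested ones included, against 50.2% over the tested genes with a known value. Across the 62 genes, the departure of HKO liver 1 correlated with GC content at Pearson's r = -0.446 (Spearman's rho -0.538), and across 9360 tested genes at -0.521 (rho -0.582). The corresponding r of the flox livers was between -0.062 and 0.067 for the splicing genes. HKO livers 2 and 3 gave 0.255 and 0.453, and their departures include HKO liver 1 in the mean they are taken from. Genes share a library and are not independent, so these values describe the libraries and carry no p. With the splicing genes cut into 3 bins of GC content, the median departure of HKO liver 1 was 0.198 in the lowest bin, where 15 of 21 log2 fold changes were positive. It was -0.183 in the middle bin, with 7 of 20 positive, and -0.377 in the highest bin, with 2 of 21 positive. Over all tested genes within the same bounds, the median departures of HKO liver 1 were 0.331, 0.0939 and -0.184. Positive log2 fold changes were found there for 1334 of 1962, 1410 of 2580 and 1711 of 4636 genes. The splicing genes of the middle and highest bins were thus less often positive than all tested genes within the same bounds. The correlation of the log2 fold change itself with GC content over the 62 genes was -0.51 with all livers, -0.15 without HKO liver 1 and -0.17 after a GC correction within each library. Over the 9360 tested genes it was -0.26, -0.058 and -0.0096. After the GC correction 19 of the 62 genes were higher and 43 lower (median log2 -0.089), against 4544 and 4816 of the 9360. The part of base composition in the values of single genes was not tested.

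The tested splicing gene of lowest GC content and the 2 of highest are shown, since they mark the ends of the range over which the departures of HKO liver 1 varied. Each line is the 90-base coding stretch nearest its transcript in composition, chosen and written as above, with G and C in capitals. The stretches are at chr12:65042708-65042797 (plus strand, exon 2 of 14) for Prpf39, chr15:99306396-99306485 (plus strand, exon 10 of 26) for Prpf40b and chr10:80801234-80801323 (plus strand, exon 2 of 9) for Sf3a2.
Prpf39: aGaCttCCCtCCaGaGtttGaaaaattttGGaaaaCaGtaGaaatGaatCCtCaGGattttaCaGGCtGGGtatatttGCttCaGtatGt
Prpf40b: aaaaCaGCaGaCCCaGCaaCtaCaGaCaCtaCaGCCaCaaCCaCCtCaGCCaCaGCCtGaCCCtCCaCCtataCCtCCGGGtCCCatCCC
Sf3a2: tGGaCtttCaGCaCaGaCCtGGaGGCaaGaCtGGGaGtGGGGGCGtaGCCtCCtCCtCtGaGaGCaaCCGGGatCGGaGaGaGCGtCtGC
The windows hold 33, 52 and 56 G or C. Prpf39, a U1-associated protein with 37.0% GC over its transcript, had 4.40, 4.54 and 5.33 FPKM in flox and 7.29, 5.80 and 4.07 in HKO livers (log2 0.20, and 0.03 without HKO liver 1). HKO liver 1 was the highest of the 6. Prpf40b, at 58.3% GC, had 5.40, 5.29 and 5.56 in flox and 3.67, 6.63 and 5.24 in HKO livers. Here HKO liver 1 was the lowest of the 6, and the log2 fold change of -0.08 became 0.10 without it.

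**Figure D4:**
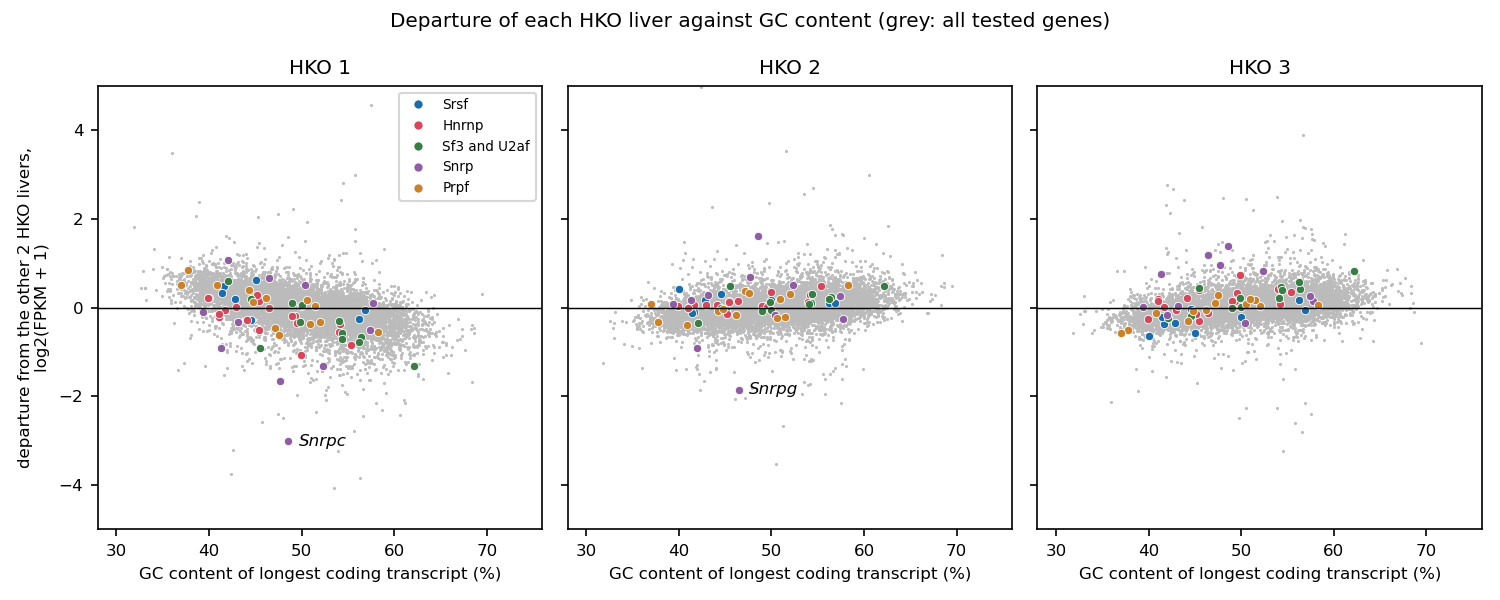
Departure of each HKO liver from the other 2 HKO livers, in log2(FPKM + 1) (vertical axis), against the GC content of the longest coding transcript in percent (horizontal axis), with 1 panel per liver, grey points for 9360 tested genes and coloured points for the 62 splicing genes. In the panel of HKO liver 1 the points slope down (r = -0.446 for the splicing genes), with Snrpc at -3.02, and in the panel of HKO liver 2 Snrpg lies at -1.87.

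Short genes departed further. For the 9 tested splicing genes with a deposited length under 1000 bases, the median size of the departure of HKO liver 1, regardless of sign, was 0.918, against 0.331 for the 53 longer ones. Over all tested genes the same medians were 0.445 and 0.265. In flox livers the short splicing genes had medians of 0.179 to 0.228 and the longer ones 0.0893 to 0.129. Sm protein genes make up most of the short group, beside Sf3b5 and U2af genes. Members of this group differ in sign in HKO liver 1, as Snrpe and Snrpd2 show.

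**Figure D5:**
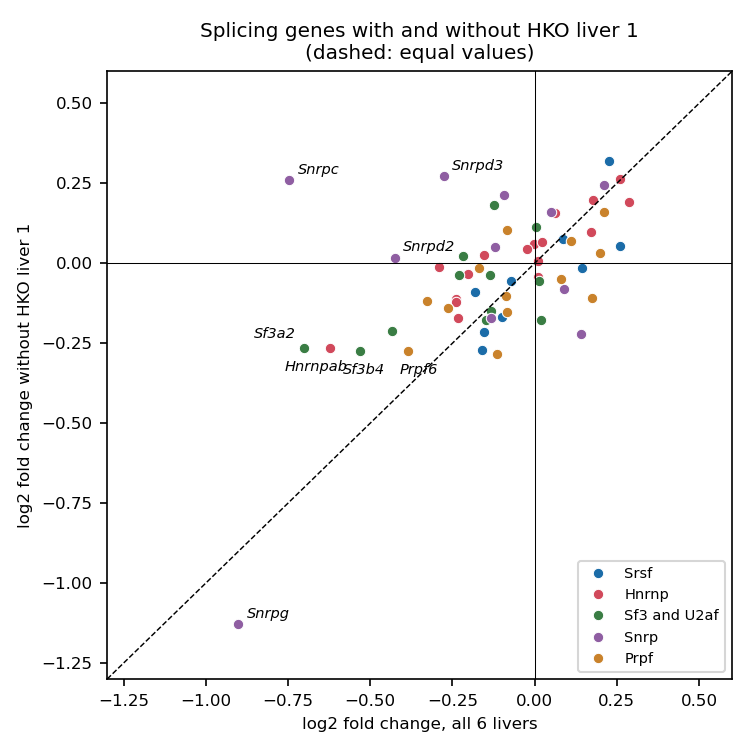
Log2 fold change (HKO minus flox) of the 62 splicing genes with all 6 livers (horizontal axis) against the value without HKO liver 1 (vertical axis), coloured by family, with a dashed line of equal values. Snrpc, Snrpd2 and Snrpd3 lie above 0 without that liver (0.26, 0.02 and 0.27), and Snrpg is the only gene below -0.3 (-1.13).

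Other genes of the splicing machinery were likewise without a call. Log2 values of single genes in this paragraph are with all livers. Of 38 tested core spliceosome proteins outside the 5 families, 15 were higher, 23 lower and 0 passed (median log2 -0.05). The 3 most abundant genes were Cwc15 (log2 -0.19), Bud31 (0.01) and the U2AF-related Puf60 (-0.25), and HKO liver 1 was the lowest HKO liver for each. Of 9 tested proteins of the minor spliceosome, which removes a rare class of introns, 3 were higher and 6 lower (median -0.09, and 0.034 without HKO liver 1), and 0 passed. Of 23 tested SR protein kinases and SR-related proteins, 11 were higher and 12 lower (median -0.02), 0 passed, and the speckle protein Srrm2 (-0.05) and the kinase Clk1 (0.27) were among the most abundant. Of 29 tested other splicing regulators, 12 were higher and 17 lower (median -0.05, and -0.025 without HKO liver 1), with Pcbp1 at -0.30, Nono at -0.07 and the polypyrimidine tract binder Ptbp1 at 0.16, and 0 passed. Of 15 tested genes of the exon junction complex and nonsense-mediated decay, 5 were higher, 10 lower and 0 passed. Their median was -0.16, and -0.076 without HKO liver 1. In this list 5 of the 15 (33.3%) lay lower in HKO livers without overlap (12.6% of all tested genes), among them the helicases Eif4a3 (-0.24) and Upf1 (-0.29). Of 12 tested genes of snRNP assembly, 3 were higher, 9 lower and 0 passed (median -0.08, and -0.14 without HKO liver 1), with Strap at 0.07 and the Gemin genes Gemin7 and Gemin2 at 0.02 and -0.09. The cold-inducible RNA-binding genes Cirbp and Rbm3 had log2 values of 0.31 and 0.30 (adjusted p = 0.480 and 0.241).

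Markers showed liver tissue in both groups. The summed FPKM of 6 hepatocyte markers was 42897 to 50677 in flox and 48222 to 50596 in HKO livers, and most of it was Alb. Of the 6, 0 passed, and 3 did not overlap between groups. Alb (albumin) was higher in HKO livers, at 26035 to 32095 in flox and 33905 to 39984 in HKO livers. Apoa1 was lower, at 9875 to 12075 and 3298 to 9024, as was the transcription factor gene Hnf4a, at 151 to 165 and 83.2 to 133. Of 6 erythroid markers, 5 were tested, all 5 were lower in HKO livers without overlap and 1 passed, and the sum of the 6 was 352 to 676 in flox and 105 to 209 in HKO livers. Sums of 6 stellate cell markers were 22.6 to 44.5 in flox and 42.7 to 55.8 in HKO livers, which overlap. Sums of 5 cholangiocyte markers were lower in HKO livers without overlap, 26.2 to 36.4 against 20.7 to 23.3, and those of 6 T and NK cell markers higher without overlap, 1.51 to 2.13 against 2.49 to 3.62. In each of these lists 1 gene was tested, Spp1 and Nkg7, which did not overlap between groups and did not pass. Markers of stellate cells, Kupffer cells, sinusoidal endothelium, B and plasma cells and neutrophils also had 0 passing genes, and Ly6g of neutrophils was at 0 in 5 of the 6 livers. The part of these marker differences in the values of the splicing genes was not tested.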

How the data were processed

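Messenger RNA of 6 mouse livers was analysed, 3 per group, which the labels call independent biological replicates. The authors deposited 1 FPKM value per gene and library, with the gene length in bases. Per the submitters' processing notes and the series text, reads were aligned to GRCm38.p6 with HISAT2 2.0.5 and counted with featureCounts 1.5.0-p3, and CASAVA and DESeq2 1.20.0 are also named. The sources used here do not say how strand and multiply aligned reads were handled, so values are uncertain for 22 of the 66 genes that overlap another annotated gene (11 of them one with at least 1 FPKM) and for genes with near-identical copies elsewhere, as Sm protein genes and Hnrnpa1 may have. FPKM times length gave whole reads for 100% of values above 0 (tolerance 0.001). The library sizes implied by the deposited FPKM differed from the recovered read totals. They were 0.952, 0.925 and 1.08 times the totals in flox livers 1 to 3. In HKO livers 1 to 3 they were 1.02, 1.08 and 1.01 times the totals.

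Genes with a mean of at least 1 FPKM were tested with limma 3.58.1 in R 4.3.3 (trend and robust options, statmod 1.5.0) on log2(FPKM + 1), which understates changes of low genes, HKO minus flox, with no covariate and Benjamini-Hochberg adjustment over all tested genes at 0.05. On simulated reads of 10337 genes for this comparison, limma called 57 of 95 genes given a 2-fold change, 90 of 91 given a 4-fold change and 6 of 10151 left unchanged. GC content came from GENCODE M21 coding transcripts matched by Entrez number (9360 tested genes, 89.5%, and all 66 splicing genes). Libraries of a group differed by a chi-square of 28.3 to 63.0 per degree of freedom, so none was a copy. Figures were drawn with Python 3.11.15 and matplotlib 3.10.9.

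The genes and the 8 lists of related genes and 9 marker lists were chosen with earlier results of these data known. Named by rule were genes past the threshold, in each family the 3 most abundant and the most positive and most negative fold change, and 29 fixed symbols, 42 in all. Hnrnpdl, Hnrnpm, Prpf39, Prpf40b, Snrpc and Snrpe were named after their values were seen. Alternatives covered pseudocount, filter, scaling, TPM, eBayes options, the replicate block, each library left out, voom and, added after the data were seen, a GC correction (lowess on GC content, span 0.3). Protein sequences were not used here. The values of 1 splicing gene are not reported here, and it is counted in the totals.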

Additional observations from a re-analysis of the deposited data

How the results depend on the processing

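Among splicing genes, 0 passed under each of 17 alternatives, and the median log2 fold change of the tested ones lay below 0 in all of them (-0.12 to -0.035). It was -0.040 under TPM and -0.11 to -0.035 with each library left out, the highest without HKO liver 1. The median over all tested genes was -0.015 with the main settings, 0.052 under TPM and -0.040 to 0.052 over the alternatives. The Srsf median of -0.072 became 0.00680 with a mean of at least 5 FPKM, 0.025 after GC correction and -0.11 to 0.11 with each library left out. The Hnrnp median became 0.074 under TPM and -0.087 after GC correction, and the Prpf median -0.00155 with a mean of at least 5 FPKM. The cause of these shifts was not tested. Counts over all genes, 28 higher and 23 lower, moved more. The higher count was 18 with a pseudocount of 0.1, 0 with no filter, 118 after GC correction and 0 to 29 with each library left out (0 without flox 1, flox 2 or HKO 2, 1 without HKO 1). The lower count was 1 with no filter, 64 after GC correction and 1 to 38 with each library left out (1 without flox 2 or HKO 2, 2 without flox 1 or HKO 1, 38 without flox 3). With the replicate block there were 1 higher and 8 lower genes, and no call of a splicing gene changed. Deviations of same-numbered livers correlated at 0.15, -0.14 and -0.051, which does not pair them. Of the named genes, 25 changed sign in at least 1 alternative, with 53 such values against 1082 of unchanged sign. After GC correction these were Bud31 (-0.017), Hnrnph1 (-0.054), Hnrnpk (-0.087), Prpf40b (0.057), Rnpc3 (-0.15), Sf3b1 (-0.091), Snrpa (0.00622), Snrpd1 (-0.045) and Strap (-0.00370). Under TPM they were Nono (0.00181), Srrm2 (0.028) and Zcrb1 (0.066, and 0.027 with quantile scaling). With each library left out, the range was -0.11 to 0.17 for Bud31, -0.35 to 0.035 for Cwc15, -0.31 to 0.040 for Gemin2, -0.032 to 0.091 for Gemin7, -0.048 to 0.11 for Hnrnph1, -0.00825 to 0.028 for Hnrnpk, -0.29 to 0.026 for Hnrnpul1, -0.25 to 0.10 for Prpf40b, -0.28 to 0.015 for Prpf4b, -0.18 to 0.14 for Sf3b1 and -0.29 to 0.18 for Sf3b5. It was -0.21 to 0.050 for Snrpa, -1.29 to 0.26 for Snrpc, -0.048 to 0.20 for Snrpd1, -0.70 to 0.017 for Snrpd2, -0.59 to 0.27 for Snrpd3, -0.22 to 0.45 for Snrpe, -0.16 to 0.047 for Srrm2, -0.30 to 0.11 for Srsf3, -0.016 to 0.30 for Srsf7, -0.11 to 0.19 for Strap, -0.35 to 0.021 for U2af1 and -0.082 to 0.077 for Zcrb1. A test with edgeR on the recovered reads was planned and not run. With 3 libraries per group and 57 of 95 simulated 2-fold changes recovered, changes of single splicing genes of 2-fold or less could be missed. The simulated reads were drawn independently and held no departure of a single library, unlike those of HKO liver 1. The rate is over all genes, and the median SE was 0.307 over the tested Snrp genes against 0.167 over all tested genes.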
